A study of Mus musculus with 2 samples.

Results

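The pore-forming alpha-1 subunits of voltage-gated calcium channels were examined in the adrenal gland through 8 genes: Cacna1h, Cacna1g and Cacna1i for T-type current, Cacna1c and Cacna1d for L-type current, Cacna1a for P/Q-type, Cacna1b for N-type and Cacna1e for R-type. They were taken by symbol, and each symbol matched 1 of the 55536 genes of the deposited gene tables. Total RNA of whole adrenal gland came from 2 female B6CASTF1/J mice, offspring of C57BL/6J and CAST/EiJ parents, at an age of 18 to 20 months. Both animals were untreated as far as the labels say, and no other age, sex, strain or treatment is in the series, so the only contrast is that of animal 2 over animal 1. The libraries took 300 ng of RNA apiece, after reduction of ribosomal RNA, by a directional kit and with ERCC spike-ins, which are synthetic RNAs added in known amounts. The labels number the libraries as separate biological replicates and name separate tissue samples, yet both carry the same donor identifier, and a field of animal 2 repeats the female named for animal 1. With 1 library per animal, a difference between the animals and a difference between the preparations cannot be told apart, and no test was run.

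Voltage-gated calcium channels open when the membrane depolarises and let calcium into the cell. The alpha-1 subunit holds the pore, the voltage sensors and the binding sites of most blockers, while alpha-2-delta and beta subunits set how many channels reach the membrane and how they gate. T-type channels open at small depolarisations and close fast, L-type channels open at stronger ones and stay open, and P/Q-, N- and R-type channels are best known from transmitter release at nerve endings. In the adrenal gland, calcium entry drives aldosterone synthesis in zona glomerulosa cells and catecholamine release from chromaffin cells, and activating mutations of human CACNA1H and CACNA1D are known causes of primary aldosteronism.

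Total expected counts were 35135703 in animal 2 and 35769717 in animal 1, and spike-ins took 0.730% of them in animal 2 and 0.886% in animal 1. The defining genes of the gland were present in both libraries. The 6 cortex genes summed to 19803 TPM in animal 2, against 15488 TPM in animal 1. By scaled counts 3 of the 6 were higher in animal 2 and 3 in animal 1, with a median log2 ratio of animal 2 over animal 1 of 0.09. The 9 chromaffin genes summed to 2011 TPM in animal 2 and 2423 in animal 1, and the 6 zona glomerulosa genes to 778 TPM in animal 2 and 795 in animal 1. TPM is a level corrected for transcript length and scaled to a fixed total per library. Skeletal muscle genes set the libraries apart: 10 genes summed to 0.42 TPM in animal 2, against 173 TPM in animal 1. Fat was also present, with 5 adipocyte genes summing to 1938 TPM in animal 2, against 3072 TPM in animal 1. By scaled counts all 5 were lower in animal 2. In bulk tissue, fewer cells of a type and less RNA per cell cannot be told apart.

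Cacna1h and Cacna1c held nearly all of the alpha-1 signal, and Cacna1d followed far below. In TPM of the gene table the ranges of Cacna1h and Cacna1c over the animals overlapped. The 8 genes summed to 56.7 TPM in animal 2, against 60.7 TPM in animal 1 (58.7 ± 2.87, SD, n = 2). A level of at least 1 TPM in both libraries was reached by 4 of the 8 (Cacna1h, Cacna1c, Cacna1d and Cacna1a), beside 52.4% of 22015 annotated protein-coding genes outside the mitochondrial genome. By mean TPM of the gene table the order was Cacna1h, Cacna1c, Cacna1d, Cacna1a, Cacna1b, Cacna1i, Cacna1g and Cacna1e. Of the neighbours in that order, the values of the 2 animals overlapped between Cacna1h and Cacna1c and between Cacna1i and Cacna1g. The order of the lowest genes differed in the second transcript table, where the mean TPM was 0.32 for Cacna1e, 0.29 for Cacna1i and 0.10 for Cacna1g. There a retained-intron transcript, Cacna1e-204, held 79.6% of the Cacna1e TPM in animal 2 and 73.1% in animal 1. Over protein-coding transcripts of that table the means were 0.28 for Cacna1i, 0.09 for Cacna1g and 0.06 for Cacna1e.

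**Figure D1:**
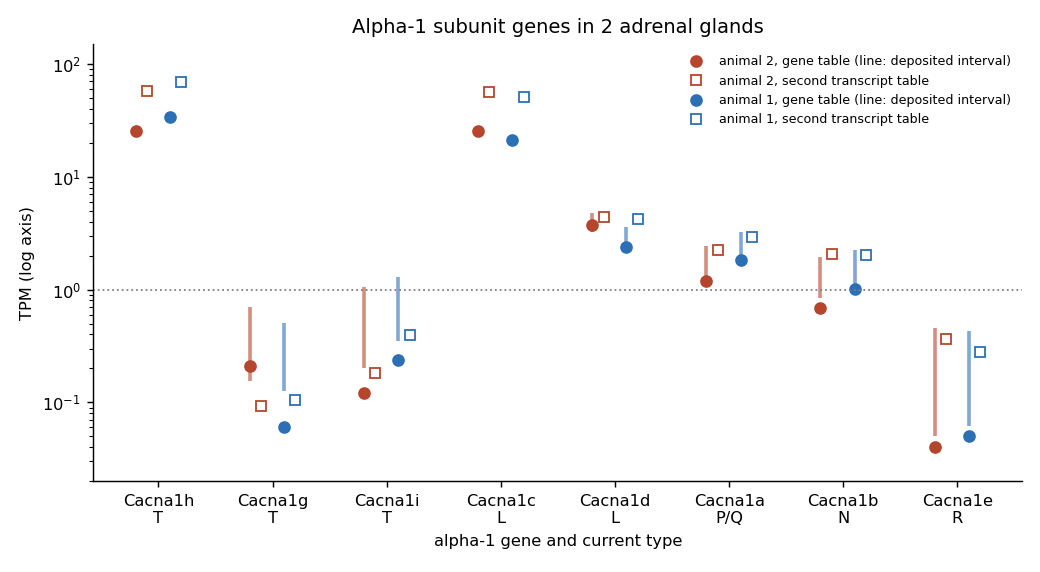
Level of each alpha-1 gene in TPM (log axis), animal 2 in red and animal 1 in blue; filled points are the gene table, vertical lines its deposited interval, and open squares the second transcript table. Cacna1h and Cacna1c stand above 20 TPM in both animals and both tables, and filled points of the low genes often lie under their own interval.

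Cacna1h, which encodes the T-type channel CaV3.2 of zona glomerulosa and many sensory neurons, spans chr17:25374285-25433783 on the minus strand (GRCm38, as for all coordinates here). It had 25.3 TPM in animal 2, against 33.9 TPM in animal 1, from 5909 expected counts in animal 2 and 8565 in animal 1. The mean of 29.6 ± 6.07 TPM (SD, n = 2) was above that of 90.9% of the protein-coding genes. Its deposited TPM intervals, 23.8 to 28.3 in animal 2 and 31.6 to 36.8 in animal 1, did not overlap, and the gene was lower in animal 2. The other T-type genes were low. Cacna1g, which encodes CaV3.1 of thalamic and cardiac pacemaking (chr11:94408391-94474198, minus strand), had 14 expected counts in animal 2, against 17 in animal 1. Cacna1i, which encodes CaV3.3 (chr15:80287238-80398279, plus strand), had 40 expected counts in animal 2, against 92 in animal 1, at levels of 0.12 TPM in animal 2 and 0.24 in animal 1.

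Cacna1c encodes CaV1.2, the L-type channel of heart and smooth muscle, and spans chr6:118587240-119196418 on the minus strand. It had 25.4 TPM in animal 2, against 21.3 TPM in animal 1, from 5208 expected counts in animal 2 and 4935 in animal 1 (mean 23.3 ± 2.91 TPM, SD, n = 2), above 88.1% of protein-coding genes. It was higher in animal 2, and its deposited intervals of 23.4 to 26.7 TPM in animal 2 and 19.5 to 22.6 TPM in animal 1 did not overlap. Smooth muscle marker genes lay the other way, with 6 genes summing to 47.6 TPM in animal 2, against 89.8 TPM in animal 1, and their part in the level of Cacna1c was not tested.

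Cacna1d encodes CaV1.3, an L-type channel that opens at lower voltage and serves pacemaking in the sinoatrial node and in chromaffin cells (chr14:30039939-30491455, minus strand). It had 3.75 TPM in animal 2, against 2.36 TPM in animal 1, from 662 expected counts in animal 2 and 627 in animal 1. The TPM therefore differed by 0.67 on the log2 scale, while the scaled counts differed by 0.16. The length that the authors' table assigns to the gene, an average over its transcripts, was 5072 bases in animal 2 and 6920 bases in animal 1. In the second transcript table the level of Cacna1d was 4.36 TPM in animal 2, against 4.18 TPM in animal 1. Cacna1g showed the same gap in a more extreme form, with 0.21 TPM in animal 2, against 0.06 TPM in animal 1 at like counts and assigned lengths of 1973 bases in animal 2 and 7391 in animal 1.

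The genes of presynaptic channels were low. Cacna1a, which encodes CaV2.1 of most central synapses (chr8:84388440-84640246, plus strand), had 1.18 TPM in animal 2, against 1.84 TPM in animal 1, from 181 counts in animal 2 and 256 in animal 1. Cacna1b, which encodes CaV2.2, a target of opioid receptors and of omega-conotoxin (chr2:24603887-24763152, minus strand), had 0.68 TPM in animal 2, against 1.02 TPM in animal 1, from 202 counts in animal 2 and 274 in animal 1. Cacna1e, which encodes CaV2.3 (chr1:154390731-154884501, minus strand), had 0.04 TPM in animal 2, against 0.05 TPM in animal 1, from 12 counts in animal 2 and 20 in animal 1. The order of Cacna1a and Cacna1b rested on how transcripts were weighed. Cacna1a was 1.74-fold above Cacna1b in animal 2 and 1.80-fold in animal 1 by gene TPM, but 0.866-fold in animal 2 and 0.818-fold in animal 1 when the TPM of protein-coding transcripts alone was summed. Genes of neurons and glia, which also make these channels, summed to 8.67 TPM in animal 2, against 12.4 TPM in animal 1 over 7 markers. S100b alone had 4.35 TPM of this in animal 2 and 5.31 TPM in animal 1. The 9 chromaffin genes summed to 2011 TPM in animal 2 and 2423 in animal 1. The part of chromaffin cells, neurons or glia in the level of Cacna1a and Cacna1b was not tested.

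Between the animals, no alpha-1 gene met the rule for a difference of at least 2-fold. The rule asked for a ratio of 2 either way in expected counts scaled with TMM, a mean count of at least 50, and deposited TPM intervals that do not overlap. Across the transcriptome, 3.46% of 13570 genes at that depth met it, 1.71% higher in animal 2 and 1.75% higher in animal 1. Of the 8 members 6 had the mean count, and 0 met the rule. The deposited intervals were apart for 2 of the 6, Cacna1h and Cacna1c, beside 33.1% of all genes tested, so the share among the members was near the background.

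All 8 genes had a mean count of at least 10. Their median log2 ratio of animal 2 over animal 1 was -0.39, beside a median of -0.01 over 17024 genes whose central 95% ran from -1.29 to 1.16. Cacna1c and Cacna1d were higher in animal 2 and the other 6 were lower. Cacna1h had a log2 ratio of -0.45, with a counting interval from -0.50 to -0.41 that covers counting error only. Cacna1c and Cacna1d had a log2 ratio of 0.16 each. Cacna1i had the lowest ratio, at -1.11 with a counting interval from -1.69 to -0.57, but its deposited TPM intervals overlapped. Cacna1a had a log2 ratio of -0.42 and Cacna1b of -0.36, and for Cacna1g and Cacna1e the counting interval included 0. With spike-in scaling the all-gene median was 0.21 and the member median -0.16, with 3 members then higher in animal 2, the added gene being Cacna1g at 0.03. On that scale Cacna1h was at -0.23, and Cacna1c and Cacna1d were at 0.38 each. The sign of Cacna1g also turned with deposited TPM, at 1.81, and that of Cacna1e in the second transcript table, at 0.11. The 9 chromaffin markers had a median log2 ratio of -0.36 with TMM and were lower in animal 2 in 9 of 9 cases, and with spike-in scaling 3 of 9 were higher in animal 2. The 6 zona glomerulosa markers had a median of -0.06 with TMM and 3 of 6 higher in animal 2, while scaling to spike-ins gave 0.17, with 5 of 6 higher in animal 2. The part of either cell type in the ratios of Cacna1h, Cacna1a and Cacna1b was not tested.

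**Figure D2:**
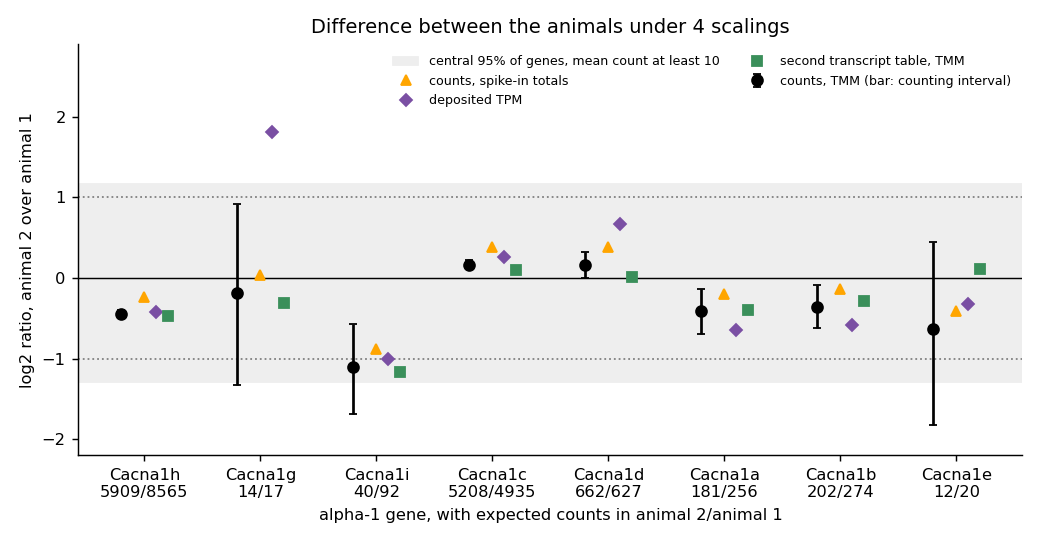
Log2 ratio of animal 2 over animal 1 for each alpha-1 gene from counts scaled with TMM (black, bars: counting interval), counts scaled to spike-ins (orange), deposited TPM (purple) and the second transcript table (green), over the central 95% of all genes (grey band) with dotted lines at a 2-fold difference. Deposited TPM depart from the counts for Cacna1g and Cacna1d, and Cacna1i alone lies near a 2-fold difference in all 4.

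The balance of T-type and L-type TPM was close to even and differed in direction between the animals. T-type genes summed to 25.7 TPM in animal 2, against 34.2 TPM in animal 1, and L-type genes to 29.1 TPM in animal 2 and 23.6 in animal 1. The log2 ratio of T-type over L-type within a library was -0.18 in animal 2 and 0.53 in animal 1 (0.18 ± 0.51, SD, n = 2), so the mean was smaller than the spread. P/Q-, N- and R-type genes together had 1.90 TPM in animal 2, against 2.91 TPM in animal 1. Within the protein-coding transcripts the T-type genes were ahead in both libraries, with log2 ratios of 0.35 in animal 2 and 1.01 in animal 1. The second transcript table gave -0.05 in animal 2 and 0.32 in animal 1 over all transcripts, and 0.56 in animal 2 and 1.20 in animal 1 over protein-coding transcripts. That coding sum still holds a short form, Cacna1h-207 of 879 bases, with 116 counts in animal 2 and 180 in animal 1. It had 8.29 TPM in animal 2 and 12.8 in animal 1, out of 40.9 coding TPM of Cacna1h in animal 2 and 58.7 in animal 1.

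Cacna1h exceeded Cacna1d in each animal and in each way of summing. The fold of Cacna1h over Cacna1d was 6.75 in animal 2 and 14.4 in animal 1 by gene TPM. It was 13.3 in animal 2 and 16.4 in animal 1 in the second transcript table, and 13.1 in animal 2 and 18.5 in animal 1 over protein-coding transcripts. By gene TPM Cacna1h and Cacna1c were level in animal 2, at a fold of 0.999, against 1.60 in animal 1. The fold of Cacna1h over Cacna1c was 1.04 in animal 2 and 1.34 in animal 1 in the second transcript table. By expected counts it was 1.13 in animal 2 and 1.74 in animal 1. Over protein-coding transcripts Cacna1h was 1.41-fold above Cacna1c in animal 2 and 2.24-fold in animal 1.

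**Figure D3:**
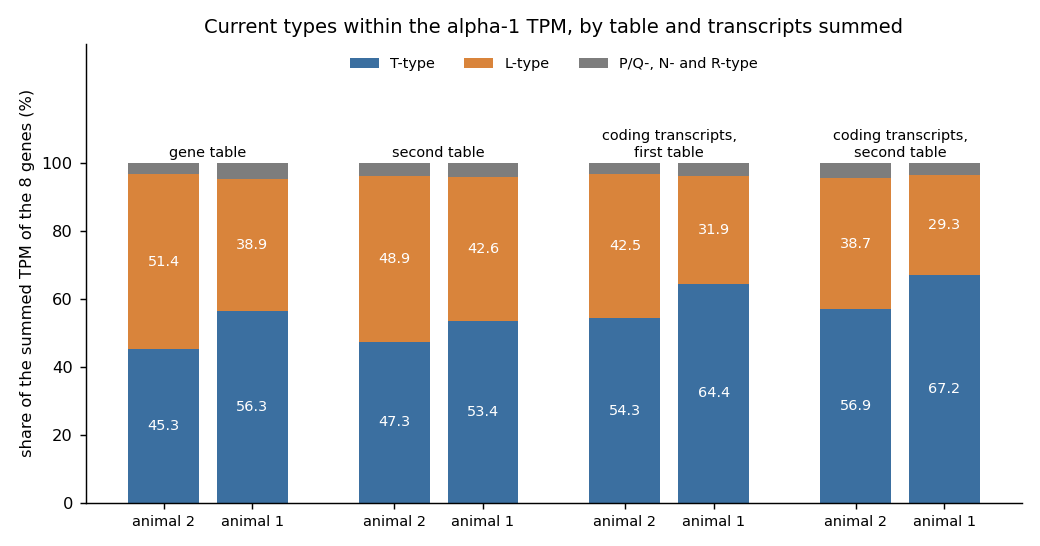
Share of the summed alpha-1 TPM in T-type (blue), L-type (orange) and P/Q-, N- and R-type genes (grey) for animal 2 and animal 1, in 4 ways of summing. The T-type share of the gene table is 45.3% in animal 2 and 56.3% in animal 1, and it is over 50% in both animals only where protein-coding transcripts are summed.

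For Cacna1c, Cacna1h and Cacna1a, transcripts not annotated as protein-coding carried few counts and a larger share of the TPM. Transcripts annotated as protein-coding held 58.7% of the Cacna1c TPM in animal 2 and 58.9% in animal 1, but 90.7% of its expected counts in animal 2 and 91.9% in animal 1. For Cacna1h they held 82.6% of the TPM in animal 2 and 82.5% in animal 1, and 98.0% of the counts in animal 2 and 97.4% in animal 1. For Cacna1d the share of TPM was 42.7% in animal 2 and 64.0% in animal 1, but 66.9% in animal 2 and 71.3% in animal 1 in the second transcript table. For Cacna1a the share in the first table was 48.7% in animal 2 and 39.1% in animal 1. Cacna1c-218, a processed transcript of 954 bases and 4 exons, had 5.91 TPM in animal 2, against 6.17 TPM in animal 1, from 179 counts in animal 2 and 205 in animal 1. In the second transcript table the same transcript had 23.7 TPM in animal 2, against 23.2 TPM in animal 1. The coding transcript Cacna1c-207 is 13162 bases long and begins at chr6:119196231, near the start of Cacna1c-218 at chr6:119196409. It had 4.50 TPM in animal 2, against 4.62 TPM in animal 1, from 2087 counts in animal 2 and 2344 in animal 1. Whether the short transcript is a separate RNA or a share of the reads of the long one was not tested.

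**Figure D4:**
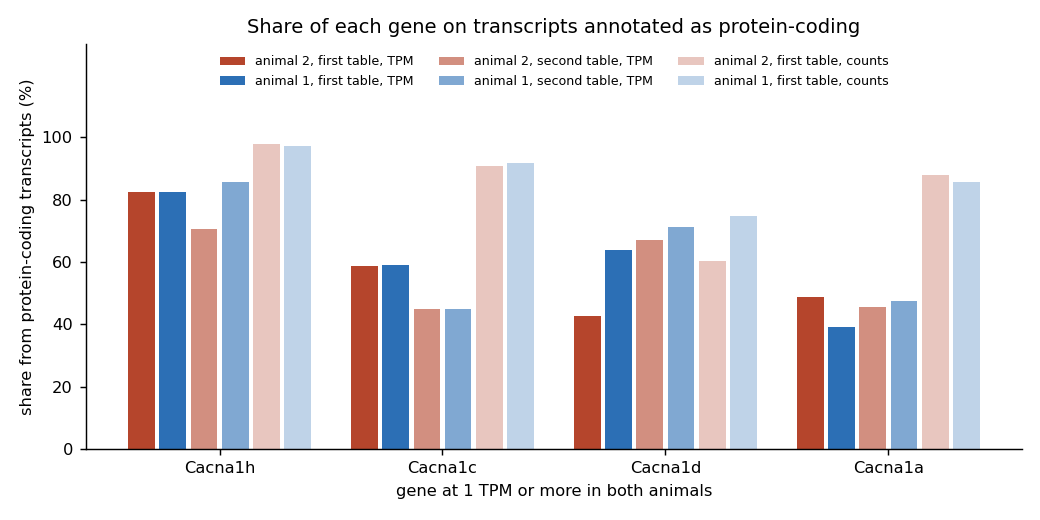
Share of each detected alpha-1 gene on transcripts annotated as protein-coding, for animal 2 (red) and animal 1 (blue), by TPM of the first transcript table (full colour), TPM of the second (medium) and expected counts of the first (pale). For Cacna1c, Cacna1h and Cacna1a the share of counts exceeds 85% while the share of TPM is lower, down to 39.1% for Cacna1a in animal 1.

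For Cacna1h, Cacna1h-205 and Cacna1h-201 could not be separated by these tables. Their first 8220 bases are identical, Cacna1h-205 is longer by 10 bases at its 3′ end, and both have the same coding length of 7077 bases. The first transcript table put 5766 counts on Cacna1h-205 in animal 2 and 8155 in animal 1, and 0 on Cacna1h-201 in both. The second gave Cacna1h-205 2736 counts in animal 2 and 6194 in animal 1, and Cacna1h-201 3753 in animal 2 and 2604 in animal 1. Together they held, in the first table, 97.6% of the Cacna1h counts in animal 2 and 95.2% in animal 1. Cacna1h-202, with a shorter coding length of 5703 bases, had 0 counts in animal 2 and 137 in animal 1 in the first table. The second gave it 0.006 counts in animal 2 and 412 in animal 1. Likewise Cacna1c-205 and Cacna1c-215 have the same sequence, so their counts cannot be told apart.

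Both L-type genes have annotated transcripts from more than 1 start site. RefSeq promoter entries (GRCm38.p6) were found for 5 members by symbol, Cacna1i, Cacna1c, Cacna1d, Cacna1b and Cacna1e, each from 250 bases before to 50 bases after a start. The stretches printed here are those upstream of the main Cacna1c starts, cut where the first annotated exon of the gene begins, since both starts carry coding counts and they differ in base composition. Capitals mark the GC box GGGCGG on either strand, matches overlapping.
Cacna1c start 1, chr6:119196419-119196659, minus strand: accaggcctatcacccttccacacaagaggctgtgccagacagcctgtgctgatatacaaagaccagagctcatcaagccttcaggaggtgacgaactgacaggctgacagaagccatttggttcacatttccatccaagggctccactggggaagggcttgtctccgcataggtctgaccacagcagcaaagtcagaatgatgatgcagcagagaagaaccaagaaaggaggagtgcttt
Cacna1c start 2, chr6:119108574-119108745, minus strand: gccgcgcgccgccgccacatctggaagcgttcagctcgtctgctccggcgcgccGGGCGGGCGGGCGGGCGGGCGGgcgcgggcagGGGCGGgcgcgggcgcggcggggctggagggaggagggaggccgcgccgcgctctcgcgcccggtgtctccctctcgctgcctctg
The upstream start lies in a window with 51.3% G and C and 3 CpG dinucleotides in 300 bases, close to the median of 52.7% over 32851 promoters. The window of the downstream start has 81.3% G and C, 57 CpG and 6 GC boxes, and 35.7% of all promoters hold at least 1 such box. A transcript was assigned to a RefSeq start when it began within 1000 bases of it. Start 2, at chr6:119108495, thus includes transcripts that begin at chr6:119107975. Among counts on protein-coding transcripts, start 1 of Cacna1c took 44.2% in animal 2 and 51.7% in animal 1, and start 2 took 52.5% in animal 2 and 46.0% in animal 1. The second transcript table gave start 1 40.4% in animal 2 and 46.8% in animal 1. Counts are not corrected for length, and Cacna1c-207 of start 1 is 13162 bases long, against 7338 bases for Cacna1c-216 of start 2. By TPM of protein-coding transcripts start 2 led, with 65.5% in animal 2 and 60.0% in animal 1, and start 1 had 30.2% in animal 2 and 37.0% in animal 1. In the second transcript table start 1 had 27.1% of that TPM in animal 2 and 32.5% in animal 1. The third start took under 1% of the coding counts in both animals of the first table.

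Cacna1d has a like pair of starts, an upstream window of 40.3% G and C with 4 CpG and a downstream window of 87.3% with 63 CpG and 6 GC boxes. Its start use could not be read from the first transcript table, which gave start 1 0% of the coding counts in animal 2 and 64.4% in animal 1. The second put start 1 at 47.6% in animal 2 and 55.7% in animal 1. The gap lay in Cacna1d-202, which had 0 counts in animal 2 and 302 in animal 1 in the first table, and 262 in animal 2 and 316 in animal 1 in the second. The site CAAGGTCA of NR5A1, the steroidogenic factor of the adrenal cortex, was in 1.56% of all promoter windows and the cAMP response element (TGACGTCA) in 1.79%. Neither string, on either strand, was in a window of these 5 genes.

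L-type transcripts also choose between paired exons that are not spliced together. A pair of 104 bases encodes the sixth segment of the first repeat, part of the pore lining, and in human CACNA1C and CACNA1D the same pair holds mutations known from Timothy syndrome and from aldosterone-producing adenomas. The sequences are shown because the counts divide between them, with capitals at positions where the members of a pair differ.
Cacna1c upstream exon, chr6:118742265-118742368, minus strand: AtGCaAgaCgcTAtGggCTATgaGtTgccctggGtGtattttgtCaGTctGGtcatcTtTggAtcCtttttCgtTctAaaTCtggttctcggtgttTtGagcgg
Cacna1c downstream exon, chr6:118741871-118741974, minus strand: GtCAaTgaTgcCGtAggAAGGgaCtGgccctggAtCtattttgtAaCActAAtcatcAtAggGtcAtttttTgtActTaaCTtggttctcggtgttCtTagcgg
Cacna1d upstream exon, chr14:30171956-30172059, minus strand: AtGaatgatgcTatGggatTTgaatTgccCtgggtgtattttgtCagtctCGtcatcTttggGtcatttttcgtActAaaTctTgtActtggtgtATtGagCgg
Cacna1d downstream exon, chr14:30171296-30171399, minus strand: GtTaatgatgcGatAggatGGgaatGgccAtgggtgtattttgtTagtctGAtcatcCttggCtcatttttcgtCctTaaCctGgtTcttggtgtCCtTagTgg
The Cacna1c exons differ at 32 positions (69.2% identical) and the Cacna1d exons at 22 (78.8% identical), and 0 annotated transcripts hold both of a pair. Transcripts with the upstream exon took 44.7% of the Cacna1c counts assigned to the pair in animal 2 and 51.6% in animal 1, or 42.7% in animal 2 and 46.5% in animal 1 in the second transcript table. By TPM, which corrects for length, its share was 31.0% in animal 2 and 37.0% in animal 1, and 30.1% in animal 2 and 32.6% in animal 1 in the second transcript table, so the downstream exon of Cacna1c led in both animals. For Cacna1d the upstream exon took 59.8% in animal 2 and 28.8% in animal 1 in the first table, and 43.7% in animal 2 and 35.8% in animal 1 in the second. By TPM its share was 52.9% in animal 2 and 26.9% in animal 1 in the first table, and 40.3% in animal 2 and 32.2% in animal 1 in the second. Both exons of each gene thus took counts in both animals by either table, and the size of the Cacna1d shares depended on the table. These shares are not limited to coding transcripts. Cacna1d-208, annotated for nonsense-mediated decay, held 100 of 299 upstream-exon counts in animal 2 and 75.1 of 157 in animal 1. In the second transcript table it held 171 of 315 in animal 2 and 179 of 267 in animal 1.

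These exon shares are sums over annotated transcripts and not counts of junction reads. Cacna1c-207 joins start 1 to the upstream exon and Cacna1c-216 joins start 2 to the downstream one, and together they took 83.5% of the Cacna1c counts in animal 2 and 85.4% in animal 1. The start and exon shares of Cacna1c therefore largely restate the balance of this pair. In the other 2 paired regions of Cacna1c, of 84 and 60 bases, some annotated transcripts hold both exons.

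Cacna1b had nearly all counts of a paired region on a single exon. Its pair of 97 bases encodes part of the C-terminal region, and the upstream form is known from nociceptive sensory neurons of rodents.
Cacna1b upstream exon, chr2:24626823-24626919, minus strand: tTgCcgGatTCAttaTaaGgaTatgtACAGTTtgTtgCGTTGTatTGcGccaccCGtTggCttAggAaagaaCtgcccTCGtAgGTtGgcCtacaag
Cacna1b downstream exon, chr2:24625238-24625334, minus strand: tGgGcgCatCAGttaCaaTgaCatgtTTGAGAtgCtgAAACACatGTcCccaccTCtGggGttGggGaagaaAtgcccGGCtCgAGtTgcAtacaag
The exons differ at 40 positions. Transcripts with the downstream exon had 201 counts in animal 2 and 268 in animal 1, and those with the upstream exon 0 in animal 2 and 1.09 in animal 1. The upstream exon is in 1 annotated transcript and the downstream exon in 5, so the comparison rests on an uneven annotation. The transcript with the upstream exon, Cacna1b-210, is 332 bases long, and counts are not corrected for length. By TPM the upstream exon took 0% of the pair in animal 2 and 13.6% in animal 1. In the second transcript table it took 0% in both animals. The paralogous pair of Cacna1e likewise had 10.6 counts in animal 2 and 19 in animal 1 on the downstream exon and 0 on the upstream exon in both.

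Of the auxiliary subunits, which travel with the high-voltage-activated channels, 6 of 16 genes reached 1 TPM in both libraries. Cacna2d1, the alpha-2-delta subunit bound by gabapentin, led with 42.2 TPM in animal 2, against 25.8 TPM in animal 1. Its log2 ratio was 0.56 with deposited intervals that did not overlap, short of 2-fold. It made up 93.3% of the alpha-2-delta TPM in animal 2 and 88.6% in animal 1, while Cacna2d2 had 2.08 TPM in animal 2 and 2.41 in animal 1 and Cacna2d3 had 0.94 in animal 2 and 0.92 in animal 1. Cacna2d4, known from photoreceptors, had 0 counts in both libraries, where up to 3 counts per library would go unseen.

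Beta subunits, which bind the alpha-1 subunit inside the cell, were led by Cacnb2 with 11.3 TPM in animal 2, against 11.6 TPM in animal 1, or 64.3% of the beta sum in animal 2 and 62.7% in animal 1. Cacnb3 had 3.58 TPM in animal 2, against 4.66 TPM in animal 1. Cacnb1 had 2.61 TPM in animal 2 and 2.01 in animal 1, and Cacnb4 had 0.07 TPM in animal 2 and 0.23 in animal 1. Of the gamma family, whose members mostly escort AMPA receptors and not calcium channels, Cacng7 had 2.69 TPM in animal 2, against 3.20 TPM in animal 1. Cacng8 had 0.52 TPM in animal 2, against 1.64 TPM in animal 1, from 25 counts in animal 2 and 74 in animal 1. Its log2 ratio was -1.46 with deposited intervals that did not overlap, but its mean count was just under the 50 that the 2-fold rule asks for. Cacng3, Cacng4 and Cacng2 had between 0.12 and 0.38 TPM, and Cacng5 had 4 counts in animal 2 and 23 in animal 1. Cacng1 and Cacng6, of which Cacng1 belongs to the skeletal muscle channel, had 0 counts each in animal 2, against 2 for Cacng1 and 9 for Cacng6 in animal 1. Of the 7 auxiliary genes averaging at least 50 counts, 0 met the 2-fold rule, near the 3.46% of all genes. Over 13 with a mean count of at least 10 the median log2 ratio was -0.13 with TMM, and 0.09 with spike-in scaling, beside 0.21 over all genes.

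**Figure D5:**
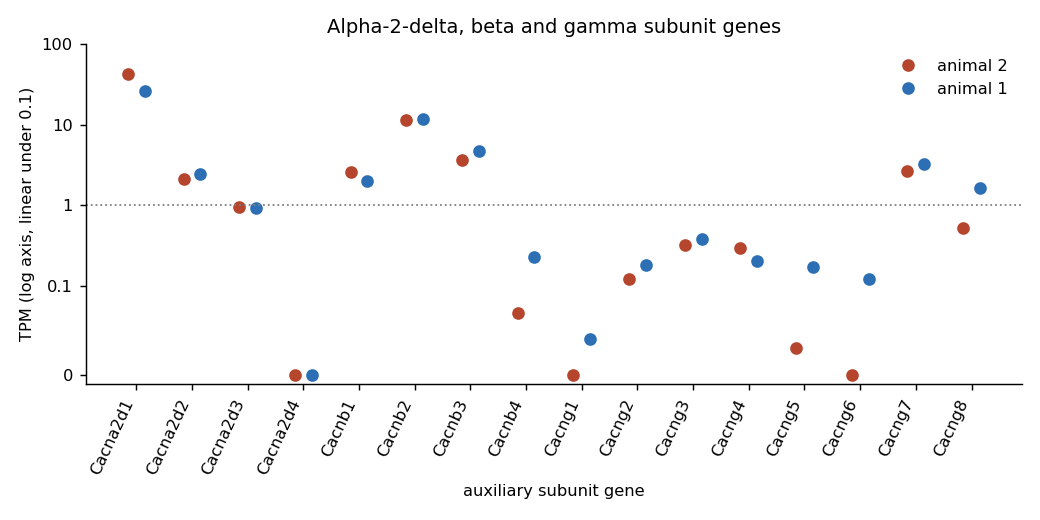
TPM of each alpha-2-delta, beta and gamma subunit gene in animal 2 (red) and animal 1 (blue), on a log axis that is linear under 0.1, with a dotted line at 1 TPM. Cacna2d1 and Cacnb2 lead their families in both animals, and Cacng1, Cacng5 and Cacng6 lie at or near 0 in animal 2.

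The alpha-1 genes outside the 8 were those of skeletal muscle and retina. Cacna1s, the voltage sensor of skeletal muscle contraction, had 18 counts in animal 2 and 222 in animal 1, at 0.17 TPM in animal 2 and 1.19 in animal 1. Its log2 ratio of -3.51 met the 2-fold rule. All 10 skeletal muscle markers also met it on the side of animal 1, beside 1.75% of all genes, with Acta1 at 0.08 TPM in animal 2, against 63.2 TPM in animal 1, and 5 of the 10 had 0 counts in animal 2. The part of muscle tissue in the Cacna1s value was not tested. Cacna1f of the retina had 1 count in animal 2 and 2 in animal 1.

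Downstream and upstream of the channels, the signalling genes that link angiotensin and calcium to aldosterone were examined as a list of 32 genes. Of these 26 reached 1 TPM in both libraries, 30 had a mean count of at least 50, and 0 of these met the 2-fold rule, near the 3.46% of all genes. The list had a median log2 ratio of -0.05 with TMM over the 31 with a mean count of at least 10, and 0.17 with spike-in scaling, beside 0.21 over all genes. Calm2 and Calm3 each encode the calcium sensor calmodulin. Calm2 had 145 TPM in animal 2, against 155 TPM in animal 1, and Calm3 had 68.4 TPM in animal 2 and 77.5 in animal 1. Agtr1a, the angiotensin receptor, had 102 TPM in animal 2, against 71.9 TPM in animal 1, and its log2 ratio of 0.37 was also short of 2-fold.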

How the data were processed

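Adrenal total RNA of 2 animals was analysed, with 1 library each. Per the file headers, the authors deposited a gene table and a transcript table with expected counts, which are estimates and can be fractional, and TPM. The gene table also holds a posterior mean TPM and bounds of its interval, at a level that no source used here states. A second transcript table of the authors gives estimated counts and TPM from a separate quantification. Neither the programs, their versions nor the use of strand in counting is given in these sources. The column names are those that RSEM and kallisto write. Per the files' description, the build is mm10 (GRCm38) with GENCODE M21, in which all 55536 gene identifiers were found, beside 96 spike-ins and 26249 other entries left out of all results. The CAST/EiJ haplotype of these animals was quantified against a C57BL/6J reference, and its effect was not tested.

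Expected counts were rounded, then TMM-scaled (edgeR 4.0.16 under R 4.3.3), with DESeq2 1.42.0 size factors, spike-in totals and TMM over protein-coding genes as alternatives. Ratios are animal 2 over animal 1 after adding 0.5 to both counts. The 95% counting intervals hold only the error of counting, and reads of 1 molecule copied by PCR are not independent. The p-value of a sign-flip test over 2 animals cannot go below 0.5, so none was run. The ratio step was checked on simulated counts. Exon and start shares are sums over annotated transcripts. Tables were handled in Python 3.11.15 with pandas 2.3.3.

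The 8 genes and all lists were chosen with earlier results of these data known. All members, auxiliary and other alpha-1 genes are named, and of other lists up to 4 genes with the highest mean TPM and genes under 0.1 TPM in both libraries in lists of 12 or fewer, except 1 gene that is not reported here.

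Exons of other genes overlapped the members on the opposite strand only. Tpsg1 overlapped 158 exonic bases of Cacna1h and had 0 counts in animal 2 and 1 in animal 1. Chdh overlapped 589 of the 12621 exonic bases of Cacna1d and had 659 counts in animal 2 and 651 in animal 1. Gm16183 overlapped 435 bases of Cacna1a and had 6 counts in animal 2 and 7 in animal 1.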

Additional observations from a re-analysis of the deposited data

How the results depend on the processing

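The summed TPM of the 8 genes, 58.7 in the gene table, was 126 in the second transcript table, 41.4 over protein-coding transcripts and 195 when scaled over nuclear protein-coding genes, a total that holds 31.0% of the TPM in animal 2 and 29.4% in animal 1. It ran from 56.7 to 60.7 when either library was left out. The mean log2 ratio of T-type over L-type, 0.18, was 0.88 over protein-coding transcripts of the second table, an alternative added after the data were seen. It was -0.18 without animal 1 and 0.53 without animal 2, so its direction rested on the library. Without the requirement on the deposited intervals, 1 member, Cacna1i, was at least 2-fold apart, against 0. The number of genes at 1 TPM was 4, and ran from 3 to 5 across thresholds, tables and single libraries. The mean log2 ratio of Cacna1h over Cacna1d, 3.30, ran from 2.76 to 3.96, and was 4.05 over protein-coding transcripts of the second table. The median member ratio of -0.39 stayed below 0 under every scaling tried, from -0.40 to -0.16. Of 48 member ratios under other settings 3 changed sign, Cacna1g with spike-in totals and with deposited TPM and Cacna1e in the second table. Of the same 48, 7 lay outside the counting interval of their gene, among them Cacna1h, Cacna1c and Cacna1d with spike-in totals. The cause of these changes was not tested. No paired analysis was possible because the series holds 1 group. The printed TPM lay under its own interval for 4 members in animal 2 and 5 in animal 1, so levels of the low genes are imprecise.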

Other observations

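Proteins that bind or neighbour these channels gave a further set of values. Of 16 genes for channel-binding and synaptic partners 12 reached 1 TPM in both libraries, and of the 12 that averaged at least 50 counts, 0 met the 2-fold rule, beside 3.46% of all genes. Gem, a small GTPase that lowers calcium current through the beta subunit, had 37.2 TPM in animal 2, against 25.4 TPM in animal 1, with a log2 ratio of 0.50. Kcnma1, the calcium-activated BK potassium channel, had 16.0 TPM in animal 2, against 17.1 TPM in animal 1. Rims2, an active-zone scaffold, had 13.0 TPM in animal 2, against 17.3 TPM in animal 1, and Snap25, a component of the vesicle fusion machinery, had 10.3 TPM in animal 2 and 11.7 in animal 1. The median log2 ratio of the list was -0.19 with TMM over the 15 that averaged at least 10 counts, with 3 higher in animal 2, beside 48.7% of all genes at that depth. With spike-in scaling the median was 0.03, with 8 of the 15 higher in animal 2, beside an all-gene median of 0.21.

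Marker lists of endothelium and fat had these values. Endothelial markers summed to 138 TPM in animal 2, against 126 TPM in animal 1 over 5 genes. Adipocyte markers summed to 1938 TPM in animal 2, against 3072 TPM in animal 1 over 5 genes, of which Ucp1 met the 2-fold rule, at 298 TPM in animal 2, against 743 TPM in animal 1.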
